A study of Homo sapiens with 4 samples.

Results

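The super elongation complex genes were taken as the rows of the TT-seq table that name a gene of the AFF, ELL, EAF or ENL/AF9 families, which came to 7 of 10147 genes. These were *AFF1*, *AFF4*, *ELL*, *ELL2*, *EAF1*, *EAF2* and *MLLT1*. The other 3 of the 10 genes named for these families, *AFF3*, *ELL3* and *MLLT3*, were not analysed here. In TT-seq, cells are fed 4-thiouridine (4sU) briefly, and the RNA that took it up is isolated and sequenced, so that reads reflect RNA synthesis. Labelling lasted 5 min with 500 µM 4sU. The cells were K562, a human chronic myelogenous leukemia line, edited so that the *IWS1* gene encodes the protein with an N-terminal dTAG, a tag through which the ligand dTAG7 directs a protein to degradation. The tag was present in both groups, 2 libraries of control cells given the solvent (DMSO) and 2 libraries of dIWS1 cells given 500 nM dTAG7. Treatment lasted 1 h in all of them. The sources used here do not say how many edited clones the libraries came from.

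The super elongation complex releases paused Pol II and speeds up its passage through genes. AFF1 or AFF4 is the scaffold, to which P-TEFb (the kinase CDK9 with a cyclin T), an ELL protein, an EAF protein that binds ELL, and ENL (encoded by *MLLT1*) or AF9 are attached. ENL and AF9 recognize acylated histone H3 through their YEATS domain, and several of these genes are known in leukemia as fusion partners of *KMT2A*.

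Only 3 different sets of reads stood behind the deposited means. The control reads entered each mean with the weight of 2 equal columns, so the control was counted as 1 sample. The 2 dIWS1 columns differed from each other, and are named column 1 and column 2 here because nothing ties them to a replicate. The spread between replicates was therefore known for dIWS1 only, and every p-value assumes that the control varied like dIWS1. Columns held 20684301 to 29832118 reads in genes. Levels are given as normalized reads, which are reads divided by the size factor from the synthetic spike-in RNAs. The direction, not named in the table, was read as dIWS1 over control. In bulk RNA, fewer transcribing cells and less RNA per cell cannot be told apart. Of 11 marker genes of K562 and erythroid progenitors 10 were listed (129 to 16164 control reads), and 0 of 6 markers of other lineages were listed.

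Over all 10027 genes tested the median log2 change was −0.42, so a member can lie below the control and still follow the median gene. Each member is therefore described on 2 scales. The spike-in scale compares synthesis per library after correction by the spike-ins. On the median-gene scale each dIWS1 column was rescaled so that the median of the genes whose mean reached 100 normalized counts lay at 0, which took out a shift of −0.47 in column 1 and of −0.36 in column 2. Changes are log2 changes ± SE from limma voom, called at an adjusted p under 0.05 (Benjamini-Hochberg over the 10027 genes tested, 1 control and 2 dIWS1 columns). Genes said to fall or rise were called lower or higher, so a gene not counted can still lie below the control.

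On the spike-in scale 4 of the 7 members fell (*AFF1*, *AFF4*, *ELL* and *MLLT1*), beside 64.9% of genes tested, and 1 member rose (*EAF2*), beside 0.12% of genes tested, or 12 genes in all. *ELL2* and *EAF1* did not pass the test. The share of members that fell was thus no larger than that of all genes. With total reads in genes in place of spike-ins, the changes of *AFF1* and *AFF4* turned to 0.00173 and 0.11, and 1319 genes were lower and 1805 higher. That scaling sets the column totals equal, so by construction it takes out a fall shared by most genes. It is no separate test of these falls. Against the median gene 3 members were higher (*ELL2*, *EAF1* and *EAF2*), beside 12.3% of genes tested, and 1 was lower (*MLLT1*), beside 13.6%. These 4 calls were lost when genes with few reads were not left out (adjusted p from 0.0541 to 0.0583, limma). The median change of the 7 members was −0.33 on the spike-in scale, and 0.08 on the median-gene scale, where the median of all genes tested was −0.01.

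**Figure D1:**
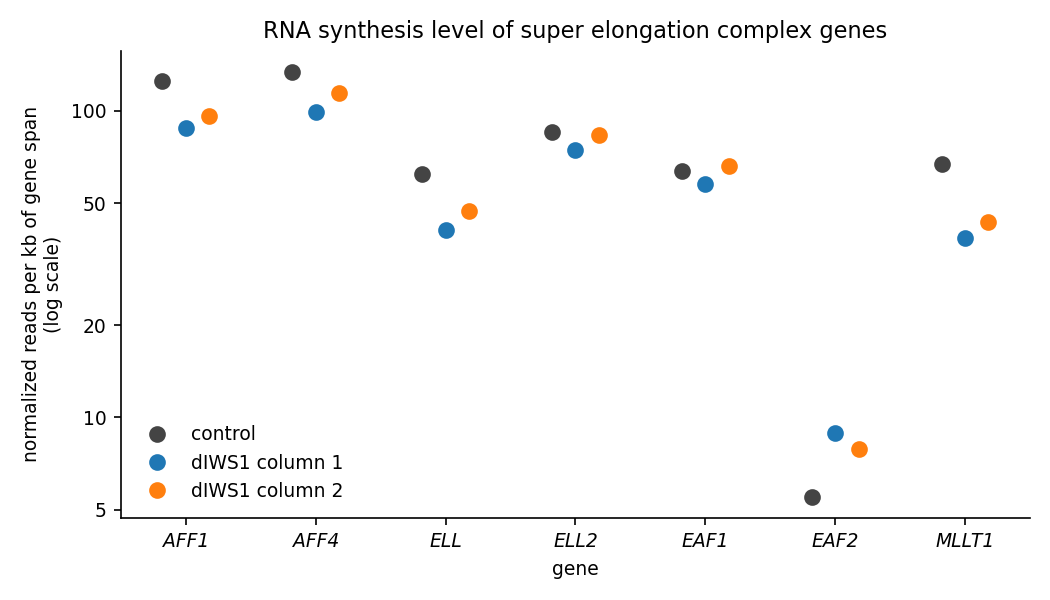
RNA synthesis level of the 7 super elongation complex genes, in normalized reads per kb of gene span on a log axis, for the control column and both dIWS1 columns. *EAF2* sits lowest, at 5.52 in the control, and is the one gene with both dIWS1 points above the control point, while *MLLT1* drops from 67.1 to 38.5 and 43.4.

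The scaffold genes were the most strongly transcribed members per kb of gene span, the length used for all levels in this paragraph. In the control *AFF4* had 134 and *AFF1* 125 normalized reads per kb of gene span, against a median of 41.9 over genes tested. *ELL2* followed at 85.2, then *MLLT1* at 67.1, *EAF1* at 63.9 and *ELL* at 62.4. *EAF2* stood far below at 5.52, and only 1.05% of genes with a known span had a lower control level. The 95% counting intervals of *MLLT1* (65.2 to 69.1) and *EAF1* (59.96 to 68.1) overlapped, as did those of *EAF1* and *ELL* (60.6 to 64.1), so these neighbours could not be ordered. All other neighbours in the control order had intervals that did not overlap. In the dIWS1 columns *MLLT1* came after *EAF1* and *ELL*, at 38.5 and 43.4 per kb. *ELL* was at 40.9 and 47.1. In column 1 the 95% counting intervals of *ELL* (39.5 to 42.3) and *MLLT1* (37.0 to 40.0) overlapped. In column 2 those of *ELL* (45.6 to 48.7) and *MLLT1* (41.8 to 45.0) did not. Taken over both dIWS1 columns, the ranges of the levels of *ELL* and *MLLT1* overlapped.

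*EAF2* encodes one of the 2 EAF proteins, which bind ELL and increase its elongation activity. It lies on the plus strand of chromosome 3, at chr3:121835209-121886526 in GRCh38.p14 (RefSeq), and spans 51.3 kb. Its canonical GENCODE transcript has 6 exons that cover 1.94% of the span. The gene *IQCB1*, which encodes a protein of the primary cilium, ends 148 bases before it, on the opposite strand, so that both genes start from the same short gap. That gap is shown because *EAF2* moved farthest above the median gene, and it is set beside the 148 bases before *MLLT1*, the member farthest below the median gene. Capitals mark CCAAT (or its reverse complement) and GGGCGG, a GC box.

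EAF2, chr3:121835061-121835208, plus strand: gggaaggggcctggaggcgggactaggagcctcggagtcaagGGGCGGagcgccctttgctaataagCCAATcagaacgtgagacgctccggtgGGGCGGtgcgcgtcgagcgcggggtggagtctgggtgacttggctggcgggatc

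MLLT1, chr19:6279976-6280123, minus strand: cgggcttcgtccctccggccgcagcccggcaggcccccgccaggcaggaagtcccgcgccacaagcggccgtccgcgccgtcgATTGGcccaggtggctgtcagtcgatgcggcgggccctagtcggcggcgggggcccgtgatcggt

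The letters were searched on both strands in the 148 bases before the start of each member, read from RefSeq promoter entries of GRCh38.p14, in which 6 of the 7 members were found and *ELL2* had no entry. No 2 matches overlapped. GGGCGG was in 5 of the 6 windows, all except that of *MLLT1*, and in 36.6% of 35116 promoters of the same length. The share of G and C in the 6 windows ran from 58.1% (*EAF1*) to 79.7% (*AFF1*). The promoters were not matched for it, so these shares do not test for enrichment. CCAAT was in 3 of the 6, *EAF1*, *EAF2* and *MLLT1*, and in 23.3% of promoters. CCGGAAG, the core of many ETS factor sites, was in the *EAF1* window alone, where it occurred 2 times, and in 6.80% of promoters. CACGTG, an E-box, was in the *AFF4* window and in 4.499% of promoters. TATAAA was in 0 of the 6 windows and in 6.61% of promoters. The *EAF1* window is also inside the span of its neighbour *METTL6*, so only the 27 bases that hold both CCGGAAG matches are shown, with the matches in capitals.

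EAF1, chr3:15427545-15427571, plus strand: CCGGAAGttcctacccgacgCCGGAAG

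Control reads of *EAF2* numbered 286, and dIWS1 reads 453 in column 1 and 372 in column 2. Both dIWS1 columns were above the control, by log2 ratios of 0.69 (95% counting interval 0.47 to 0.91) and 0.51 (0.29 to 0.74). Its change was 0.60 ± 0.14 on the spike-in scale (adjusted p = 7.96e-05, limma), a level of 152% of the control. Its change against the median gene was 1.01 ± 0.14 (adjusted p = 0.00102, limma), or 2.02-fold. On the spike-in scale 16 genes tested had a higher change, and 0 of them were among the 8900 genes whose mean reached 100 normalized counts. Such a position above 0 was uncommon, since 123 of these 8900 genes (1.38%) lay above the control in both dIWS1 columns. *EAF2* had the fewest reads of the 7 members. The authors kept genes with a median above 10 reads per kb, and the length they divided by is not given in the sources used here. Per kb of the RefSeq span *EAF2* had 5.57 control reads and 8.83 and 7.25 dIWS1 reads, so 0 of its columns reached that threshold on this length. The same held for the median of 1280 of 9927 listed genes with a known span (12.9%). How *EAF2* came over the threshold was therefore not tested.

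*IQCB1*, the head-to-head neighbour of *EAF2*, had 5671 control reads and 4897 and 4934 dIWS1 reads. It did not pass on the spike-in scale (−0.13 ± 0.15, adjusted p = 0.440, limma), and was higher than the median gene by 0.29 ± 0.06 (adjusted p = 0.00774, limma). The next listed gene on the other side, *CCDC58* (now *MIX23*), is 473064 bases away. It fell by 0.32 ± 0.14 on the spike-in scale (adjusted p = 0.0385, limma) and stood at 0.10 ± 0.07 against the median gene (adjusted p = 0.346, limma). The genes most like *EAF2*, by the distance between their log2 ratios in the 2 dIWS1 columns, were *LOC100507639* (distance 0.23), *CRISPLD1* (0.26) and *KLHL15* (0.28). Their ratios were 0.45 and 0.48, 0.45 and 0.42, and 0.43 and 0.61 in columns 1 and 2. All 3 were called higher on both scales, which is no separate result, since they were chosen by these ratios.

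*EAF1*, the other EAF gene, is a 15.02 kb gene at chr3:15427598-15442613 on the plus strand, and its reads were 969 in the control, 864 in column 1 and 915 in column 2. The dIWS1 columns lay on either side of the control, at log2 ratios of −0.14 (−0.28 to −0.01) and 0.05 (−0.08 to 0.18). Its change was −0.04 ± 0.13 on the spike-in scale (adjusted p = 0.766, limma), while against the median gene it was higher by 0.37 ± 0.08 (adjusted p = 0.00806, limma). *METTL6*, a tRNA methyltransferase gene on the opposite strand whose RefSeq span (chr3:15381275-15427643) overlaps the start of *EAF1*, had 1063, 749 and 768 reads. *METTL6* fell by 0.41 ± 0.13 on the spike-in scale (adjusted p = 0.00553, limma) and lay near the median gene (0.01 ± 0.08, adjusted p = 0.960, limma). It was named after its values were seen.

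**Figure D2:**
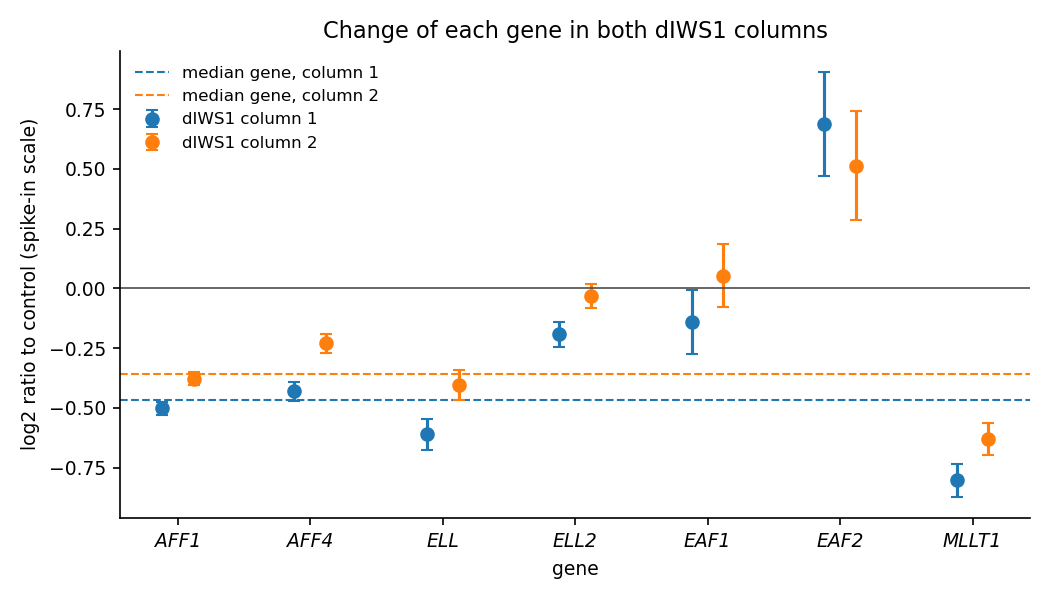
Log2 ratio to the control on the spike-in scale of each member in dIWS1 column 1 and column 2, with 95% intervals from counting error and dashed lines at the median gene of each column (−0.47 and −0.36). *EAF2* lies above 0 in both columns, *ELL2* and *EAF1* lie between the dashed lines and 0 or just above it, and *MLLT1* lies below the dashed lines.

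The difference between both EAF genes did not depend on the scaling, since a size factor cancels between 2 genes of the same column. *EAF2* exceeded *EAF1* by 0.83 (95% counting interval 0.58 to 1.08) in column 1 and by 0.46 (0.20 to 0.72) in column 2. In terms of reads, *EAF2* made up 22.8% (exact binomial interval 20.5 to 25.2) of all reads of the pair in the control, 34.4% (31.8 to 37.0) in column 1 and 28.9% (26.4 to 31.5) in column 2. Per kb of gene span *EAF1* remained the stronger gene, at 11.6 times the level of *EAF2* in the control and 6.52 and 8.41 times in the dIWS1 columns. Divided by the exon length of the canonical transcript instead, control reads came to 218 per kb for *EAF1* and 287 for *EAF2*. Exons cover 29.6% of the *EAF1* span and 1.94% of the *EAF2* span. For its boxplots the paper took counts over whole gene bodies, which include introns, and exon length does not match such counts. The 2 exon values therefore do not order both genes. The intervals given here and elsewhere cover counting error only.

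*ELL* and *ELL2* encode elongation factors that suppress brief pauses of Pol II, and ELL2 is known for its part in immunoglobulin secretion by plasma cells and in HIV Tat activation. *ELL* (chr19:18442663-18522070, minus strand, 79.4 kb) had 4999 control reads and 3222 and 3441 dIWS1 reads. It was lower in both columns, and its change was −0.51 ± 0.15 (adjusted p = 0.00227, limma), or 70.4% of the control. Against the median gene it was −0.09 ± 0.07 and did not pass (adjusted p = 0.338, limma).

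*ELL2* (chr5:95885098-95961851, minus strand, 76.8 kb) had 6602 control reads and 5683 and 5877 dIWS1 reads. Its log2 ratios were −0.19 (−0.24 to −0.14) in column 1 and −0.03 (−0.08 to 0.02) in column 2, so the second interval included the control. The change did not pass on the spike-in scale (−0.11 ± 0.15, adjusted p = 0.492, limma). *ELL2* was, however, higher than the median gene by 0.30 ± 0.06 (adjusted p = 0.00631, limma). The start of *ELL2* is inside the RefSeq span of *CAST*, which runs the other way and encodes the calpain inhibitor calpastatin. *CAST*, named after its values were seen, had 1724, 1393 and 1403 reads and passed on neither scale (−0.22 ± 0.14, adjusted p = 0.152, and 0.19 ± 0.07, adjusted p = 0.0640, limma). The difference between *ELL2* and *ELL* was 0.42 (0.34 to 0.50) in column 1 and 0.37 (0.29 to 0.45) in column 2. *ELL2* held 56.9% of the reads of the pair in the control and 63.8% and 63.1% in the dIWS1 columns.

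The scaffold genes lay near the median gene. *AFF1* (chr4:86935011-87141039, plus strand) is the longest member at 206 kb and had the most reads, 25952 in the control and 18029 and 18178 in the dIWS1 columns. It fell by 0.44 ± 0.14 on the spike-in scale (adjusted p = 0.00406, limma), to 73.7% of the control, and stood at −0.03 ± 0.05 against the median gene (adjusted p = 0.749, limma). *AFF4* (chr5:132875395-132963634, minus strand, 88.2 kb) had 11935 control reads and 8711 and 9272 dIWS1 reads. It fell by 0.33 ± 0.15 (adjusted p = 0.0397, limma), to 79.5% of the control, and stood at 0.08 ± 0.06 against the median gene (adjusted p = 0.341, limma). The call of *AFF4* was lost with the limma trend model (adjusted p = 0.113). *AFF4* was above *AFF1* by 0.07 (0.02 to 0.12) in column 1 and 0.15 (0.10 to 0.20) in column 2, and its share of the reads of the pair went from 31.5% in the control to 32.6% and 33.8%. Of the 3 pairs of related members compared this way, this was the smallest difference.

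*MLLT1*, which encodes the histone reader ENL, showed the largest decrease among the members. The gene lies at chr19:6210381-6279975 on the minus strand and spans 69.6 kb. Its reads were 4716 in the control, 2661 in column 1 and 2775 in column 2, both far below the control. The log2 ratios were −0.80 (−0.87 to −0.73) and −0.63 (−0.70 to −0.56). The change was −0.72 ± 0.15 (adjusted p = 1.77e-05, limma), to 60.9% of the control, and 13.6% of genes tested had a lower change. *MLLT1* was also lower than the median gene (−0.30 ± 0.07, adjusted p = 0.00793, limma).

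**Figure D3:**
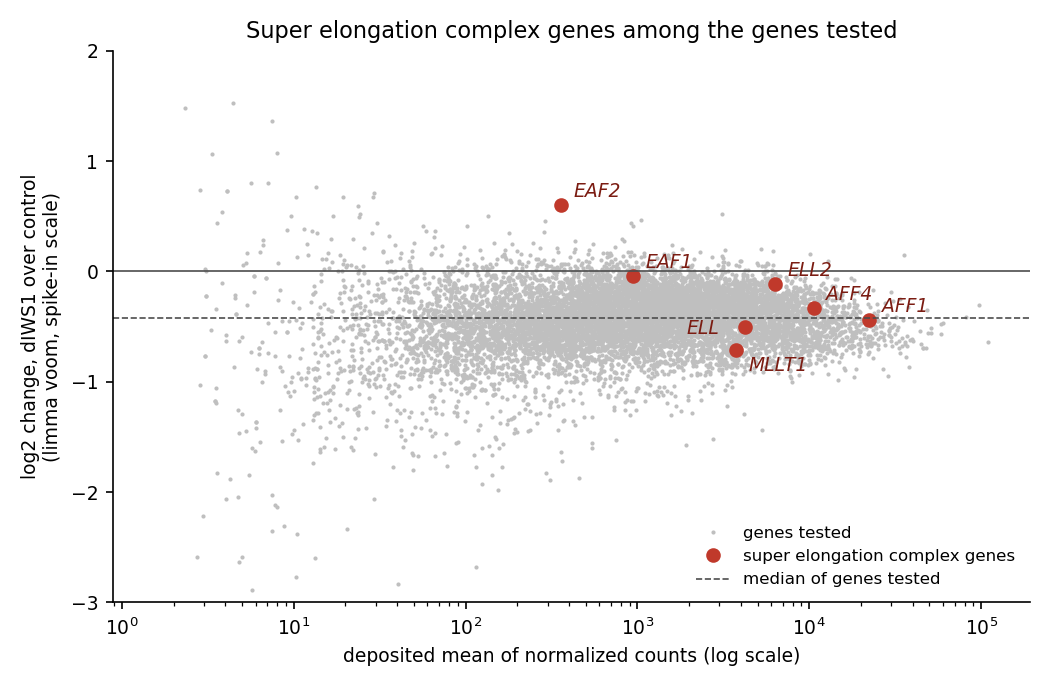
Log2 change on the spike-in scale (limma voom) against the deposited mean of normalized counts (log axis) for the genes tested, with the 7 members in red, 0 as a solid line and the median gene as a dashed line. *EAF2*, at 0.60, lies above the cloud at its level and *MLLT1*, at −0.72, in its lower part, and 6 genes lie outside the vertical range.

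Taking the members by length, the 5 with spans over 65 kb (*AFF1*, *AFF4*, *ELL*, *ELL2* and *MLLT1*) had 4 falls on the spike-in scale. Among the 2429 genes over 65 kb, a length chosen to take in these 5, the median change was −0.49 and 77.6% were called lower. On the median-gene scale 28.3% of such genes were lower and 10.6% higher, with a median of −0.08, beside 1 lower and 1 higher of the 5 members. The ratios to the control of 6 of the 7 members were higher in column 2 than in column 1, *EAF2* being the exception. Between the dIWS1 columns, the log2 ratio (column 1 to column 2) over these 8900 genes had a median of −0.12 and an SD of 0.13. *IWS1* itself, the tagged gene, had 3684, 2334 and 2427 reads and fell by 0.55 ± 0.15 (adjusted p = 0.000873, limma), with −0.14 ± 0.07 against the median gene (adjusted p = 0.152, limma). Since dTAG7 acts on the protein, its RNA does not measure the depletion.

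The factors that work with the super elongation complex were examined in lists of 28 genes, of which 25 had a row. On the spike-in scale 17 of the 25 fell and 0 rose in limma (0 at an unadjusted p under 0.05 as well), with a median change of −0.35. That count is near the 64.9% of all genes tested that were lower, so it shows nothing particular to the partners. All 25 genes had a change below 0, the highest at −0.08, also those that did not pass. Against the median gene 2 were lower, 1 was higher and 22 did not pass, with a median of 0.06, beside 13.6% lower and 12.3% higher over all genes tested. The 3 that passed against the median gene were *DOT1L* and *MLLT10*, lower, and *ZC3H8*, higher. For these 3, and for *IQCB1*, that call was not examined under other settings. The members' calls on this scale were lost with no filter on low values.

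Of the P-TEFb genes and their 7SK regulators, which hold the kinase inactive, 5 of 6 fell on the spike-in scale, beside 64.9% of all genes tested (*CDK9*, *CCNT1*, *HEXIM1*, *LARP7* and *MEPCE*). *CDK9* fell by 0.28 ± 0.13, from 599 control reads to 453 and 481 (adjusted p = 0.0469, limma). *CCNT2* had a change of −0.24 ± 0.15 and did not pass (adjusted p = 0.153, limma). Against the median gene 0 of these 6 passed in limma (1, *CCNT2*, at an unadjusted p under 0.05), and their changes ran from −0.09 to 0.18. The little elongation complex shares ELL with the super elongation complex and acts on small nuclear RNA genes. Its genes *ICE1* and *ICE2* fell, again beside 64.9% of all genes tested, by 0.35 ± 0.15 and 0.47 ± 0.15 (adjusted p = 0.0325 and 0.00483, limma). *ZC3H8*, the other gene of that complex, had 2120 control reads and 1896 and 1900 dIWS1 reads. It did not pass on the spike-in scale (−0.08 ± 0.15, adjusted p = 0.619, limma) and was higher than the median gene by 0.33 ± 0.07 (adjusted p = 0.00550, limma).

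The PAF1 complex travels with Pol II and is a binding partner of AFF scaffolds and of ENL. Of its 5 listed genes 3 fell on the spike-in scale (*PAF1*, *RTF1* and *WDR61*, now *SKIC8*), near the 64.9% of all genes, and 0 passed against the median gene in limma (1, *CTR9*, at an unadjusted p under 0.05), where their changes ran from 0.00475 to 0.23. *DOT1L*, *MLLT10* and *KMT2A* fell on the spike-in scale, beside 64.9% of all genes tested. All have spans over 65 kb, a class in which 77.6% fell on that scale and 28.3% were lower than the median gene. DOT1L, the H3K79 methyltransferase, and AF10, encoded by *MLLT10*, form a complex with ENL or AF9. *DOT1L* fell by 0.74 ± 0.15, from 5818 control reads to 3140 and 3447 (adjusted p = 8.41e-06, limma), and was at −0.33 ± 0.07 against the median gene (adjusted p = 0.00782, limma). *MLLT10* was at −0.21 ± 0.06 against the median gene (adjusted p = 0.0191, limma). *KMT2A* did not pass on that scale, at −0.09 ± 0.06 (adjusted p = 0.288, limma). Of 8 other genes of factors that stimulate elongating Pol II, 4 fell (*TCEB2*, *ELOF1*, *SUPT5H* and *SUPT6H*), again beside 64.9% of all genes, and 0 of 8 passed against the median gene in limma (1, *TCEB3*, at an unadjusted p under 0.05), with changes from −0.12 to 0.18. Elongin genes are listed under the older symbols *TCEB1*, *TCEB2* and *TCEB3*.

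**Figure D4:**
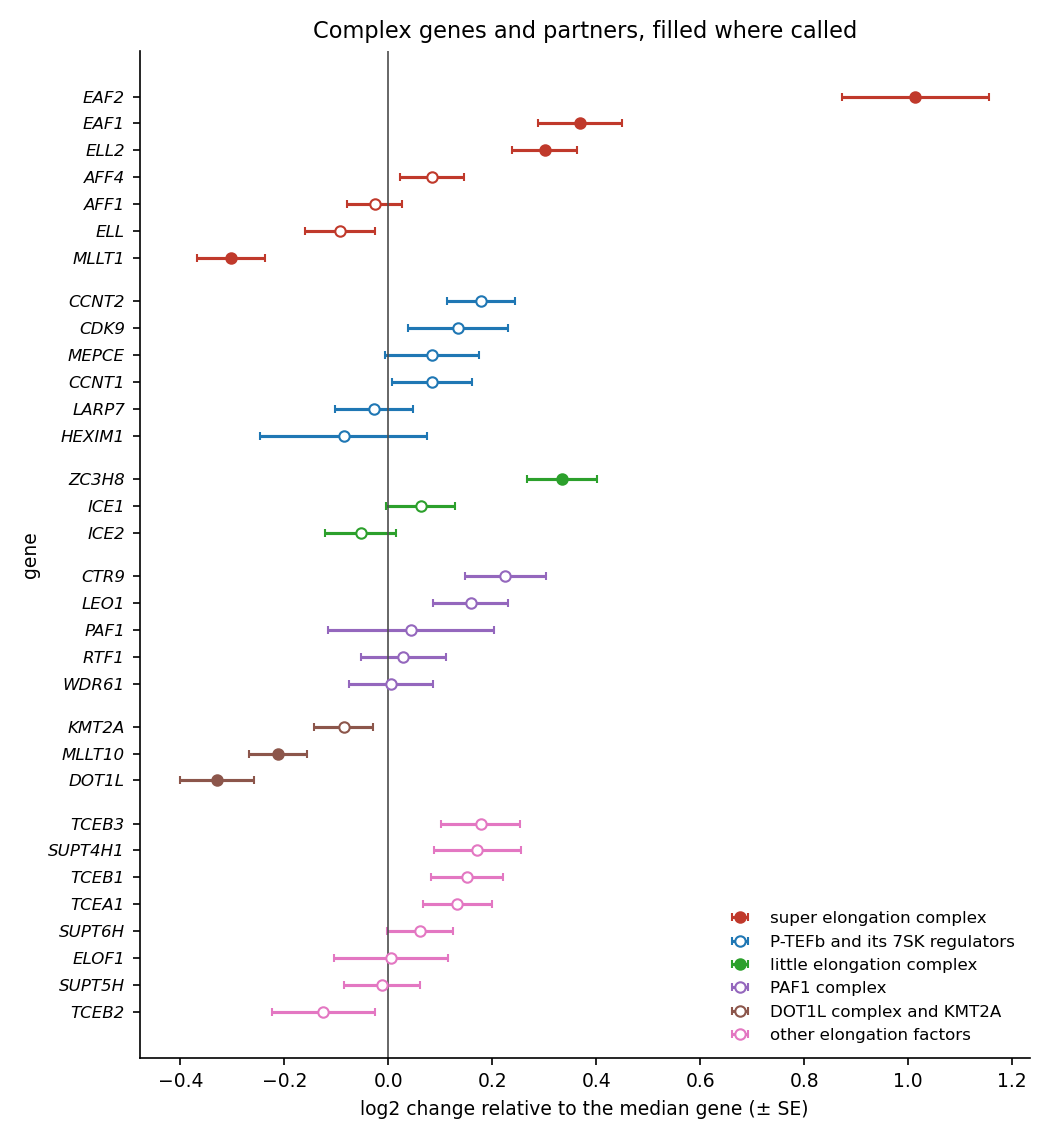
Log2 change relative to the median gene, with its SE, for the 7 super elongation complex genes and 25 partner genes, grouped by complex, with filled points where adjusted p was under 0.05. Most points lie near 0, *EAF2* stands at 1.01, and *MLLT1* and *DOT1L* are the lowest, at −0.30 and −0.33.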

How the data were processed

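TT-seq reads of 4 libraries were aligned by the authors to GRCh38 with STAR 2.6.0 (unique alignments) and counted per RefSeq gene with respect to strand. Per their methods, overlapping genes were removed and a threshold of reads per kb applied, although *EAF1* and *METTL6*, and *ELL2* and *CAST*, overlap on opposite strands in the RefSeq spans used here. The deposited signal is the mean over library columns of counts divided by spike-in size factors, and the deposited log2 fold change comes from the authors' DESeq2 fit. The other deposited statistics were not used. Whole reads per column were recovered from the means, with the log2 fold change limiting the search. All 10136 genes with a mean above 0 had 1 solution, and 0 of 300 slightly shifted means could be split. Size factors were 1.01 for the control and 0.993 and 0.919 for dIWS1, and reads in genes 29832118, 20684301 and 20886697.

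Genes with over 3 reads in a column were tested with limma voom 3.58.1 (R 4.3.3), 1 control against 2 dIWS1 columns, with 1 residual degree of freedom per gene. Both steps were tried on simulated data. The data simulated for limma voom had few changed genes, no shift of most genes and no offset between the dIWS1 columns. They therefore do not test the fit under the conditions seen here. Spans came from RefSeq (GRCh38.p14) by symbol (9353 genes) or synonym (576), not for 218. Intervals are 95%. The members, partner lists and tests were chosen with earlier results of these data known. Named beyond the members were *IWS1*, partner genes, the listed neighbours of *EAF2*, the 3 genes most like it with a mean of at least 100 and, after their values were seen, *METTL6* and *CAST*. Of the 28 partner genes 3 were not analysed here, and 1 further gene is not reported here. Python 3.11.15, numpy 2.4.6, pandas 2.3.3, scipy 1.17.1 and matplotlib 3.10.9 were used.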

Additional observations from a re-analysis of the deposited data

How the results depend on the processing

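The alternatives were another variance model, other filters on low values, other pseudocounts, the control entered 2 times, other scalings, centres and thresholds, and leaving out a dIWS1 column. A threshold on the unadjusted p was added after the data were seen. Over the members' log2 changes, 96 tested alternatives kept direction and side of the threshold. With the direction kept, 9 lost the call and 1 gained it, and 6 turned the direction. Among these 6, under total reads, *AFF1* and *AFF4* also lost their calls, and *ELL2* and *EAF1* were called higher. *EAF2* and *MLLT1* kept their spike-in calls under all alternatives with a test. Scaling by total reads turned the spike-in changes of *AFF1* (0.00173, within its SE of 0.05), *AFF4* (0.11), *ELL2* (0.33) and *EAF1* (0.40), and ended the call of *ELL* (−0.06). Lowering the dIWS1 size factors by 0.2 (log2) turned *ELL2* (0.087) and *EAF1* (0.16) and ended the calls of *AFF1*, *AFF4* and *ELL*. Under total reads 1319 genes and 1 member were lower and 1805 genes and 3 members higher on the spike-in scale. With size factors lowered, 2720 genes and 1 member were lower and 56 genes higher, and with size factors raised by 0.2 (log2) 6 were higher. The 12 genes higher became 57 with the control entered 2 times, 7 at adjusted p under 0.01, 21 at adjusted p under 0.1 and 20 at an unadjusted p under 0.05. Against the median gene, 1364 genes were lower and 1238 higher. With the control entered 2 times these were 2769 and 2621, and at adjusted p under 0.01 they were 662 and 449. At an unadjusted p under 0.05, 1888 were higher. With no filter on low values 271 genes were lower and 121 higher, and 0 members were called in either direction in limma, with adjusted p of *ELL2*, *EAF1*, *EAF2* and *MLLT1* from 0.0541 to 0.0583. The cause of these differences was not tested, except that scaling moves all genes together by construction.

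Without one dIWS1 column the change of each member is the ratio of the other column, given above, with no test. Of these 28 values 1 turned direction, that of *EAF1* on the spike-in scale (−0.14 and 0.05), and *EAF2* runs from 0.51 to 0.69. Counts of called genes have no value there, and the single control column could not be left out. No paired analysis was possible because nothing ties the dIWS1 columns to replicate numbers and the control was counted once. With 1 control column, depth limits *EAF2* most, at 286 to 453 reads a column.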
